A study of Mus musculus with 2 samples.

Results

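A set of splenic regulatory T cells (Tregs) was defined by the transcripts of Ccr2, Ccr3, Itgae and Gzmb. Members were the cells of the PPARg-low library with mitochondrial transcripts at 10% or less of their unique molecular identifiers (UMIs, counts of captured mRNA molecules), at least 2 UMIs summed over those 4 genes (the gate), and 0 or 1 UMI summed over Il10, Lag3, Ccr8 and Il1r2 (the exclusion genes). The rule found 149 cells among 1619 cells kept by the mitochondrial limit and 1992 barcodes in that library, out of 4894 barcodes in the series. They are called gated cells here, and they were compared with the 828 other kept cells of the library in which ribosomal protein genes gave under 20% of UMIs (other ribosome-poor cells). The levels of the 8 genes in the rule chose the cells, so those levels are given as a description only.

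The series holds 2 single-cell RNA libraries of spleen CD4 Tregs, labelled PPARg low and PPARg negative, made with 10x Genomics 3′ chemistry from male B6 Pparg-Tdt.Foxp3-Gfp mice aged 8 weeks. Every cell of both groups came from animals carrying both reporter alleles, a Tdt reporter of Pparg and a Gfp reporter of Foxp3, and no treatment is named in the labels. Spleens of 2 or 3 animals were pooled before sorting, so each group is 1 library and animals cannot be told apart within it. The deposited matrices of the PPARg-low library carry the tag "pos" where the label says low, and the label is followed here. With 1 library per group no test across samples exists. Levels are therefore UMIs summed over a set of cells and given as CPM (counts per 1000000 UMIs), with exact Poisson 95% intervals, and ratios carry exact conditional 95% intervals; both cover counting error only, and neither spread between animals nor between cells is in them.

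Tregs restrain other immune cells and depend on the transcription factor Foxp3, and part of the splenic pool is known to leave for non-lymphoid tissues. PPARg is a nuclear receptor best known for fat cell differentiation and is used as a marker of Tregs bound for, or resident in, such tissues. Ccr2 and Ccr3 encode receptors for inflammatory chemokines, known from the movement of monocytes and of eosinophils. Itgae encodes the CD103 chain, which pairs with the chain from Itgb7 to bind E-cadherin on epithelium, and Gzmb encodes granzyme B, a serine protease of cytotoxic granules that activated Tregs can also make.

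The promoters of gate genes are shown only as a description of the genes that the rule used to choose the cells. The genes lie on 3 chromosomes (mm10 coordinates of GENCODE M21): Ccr2 at chr9:124101950-124113557 on the plus strand, Ccr3 beside it at chr9:124021972-124031689 on the plus strand, Itgae at chr11:73090583-73147446 on the plus strand and Gzmb at chr14:56258838-56262260 on the minus strand. RefSeq promoters of build GRCm38.p6 matched for Ccr2 (chr9:124101933-124102232), Ccr3 (chr9:124021721-124022020) and Gzmb (chr14:56262285-56262584, minus strand), each 300 bases long and written 5′ to 3′. Capitals mark matches, on either strand, to the Runx core TGTGGT or to the AP-1 motif TGANTCA.
Ccr2: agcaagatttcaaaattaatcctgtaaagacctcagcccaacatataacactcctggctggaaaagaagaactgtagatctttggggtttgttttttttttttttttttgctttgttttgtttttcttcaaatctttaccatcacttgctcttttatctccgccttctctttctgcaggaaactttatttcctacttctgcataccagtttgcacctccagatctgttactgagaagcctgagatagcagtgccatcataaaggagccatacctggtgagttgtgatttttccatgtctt
Ccr3: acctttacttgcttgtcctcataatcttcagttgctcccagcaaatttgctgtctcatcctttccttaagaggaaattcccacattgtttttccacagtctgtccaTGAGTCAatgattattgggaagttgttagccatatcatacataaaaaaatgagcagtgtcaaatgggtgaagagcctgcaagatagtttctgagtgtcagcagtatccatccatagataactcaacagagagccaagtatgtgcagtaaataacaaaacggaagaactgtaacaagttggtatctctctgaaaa
Gzmb: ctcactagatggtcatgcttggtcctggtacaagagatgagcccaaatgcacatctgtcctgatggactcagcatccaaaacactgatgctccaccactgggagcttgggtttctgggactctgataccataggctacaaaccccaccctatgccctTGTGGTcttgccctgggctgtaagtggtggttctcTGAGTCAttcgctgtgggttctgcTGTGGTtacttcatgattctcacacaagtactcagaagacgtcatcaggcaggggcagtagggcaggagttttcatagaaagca
The Gzmb promoter held 2 Runx core matches, at -93 and -34 from the annotated start, and 1 AP-1 match at -58. The Ccr3 promoter held 1 AP-1 match at -144, and these letters were not found in the Ccr2 window. Of 32851 mouse promoters of this length, 16.8% held the Runx core and 7.81% the AP-1 motif, and a match is a description of letters, not a site.

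The gated cells carried T cell transcripts throughout. A UMI of Cd3d, Cd3e or Cd3g was present in 147 of 149 cells, and all 149 had at least 1 UMI from a list of 10 Treg and CD4 T cell genes. Foxp3 itself gave 11 UMIs in 11 gated cells, 40.4 CPM, against 53 UMIs, 54.2 CPM, in the other ribosome-poor cells (ratio 0.747, 0.352 to 1.45), so its level was low in both and not distinguishable at this depth. Pparg gave 3 UMIs in gated cells and 18 in the other ribosome-poor cells of the library, a ratio of 0.600 with an interval of 0.113 to 2.05. It gave 0 UMIs in both sets of the PPARg-negative library.

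Markers of other cells that use the gate genes were at or near 0. All 6 eosinophil genes, all 6 basophil and mast cell genes, all 4 platelet genes and all 5 gamma delta T cell genes gave 0 UMIs in the gated cells. Of 10 natural killer (NK) cell genes 9 were at 0, among them Ncr1, Eomes and Prf1, and the remaining one, Gzma, gave 1 UMI. Of 10 monocyte and macrophage genes 6 were at 0, including Lyz2 and Csf1r, and the list summed to 36.8 CPM (17.6 to 67.6) in gated cells and 50.1 CPM (37.0 to 66.2) in other ribosome-poor cells. Of 10 dendritic cell genes 8 were at 0, and Cd74, which T cells also express, gave 164 of that list's 167 UMIs. Cd8a was at 0 and Cd8b1 gave 7 UMIs. Among B cell genes 7 of 8 were at 0, while Cd79b gave 22 UMIs, 80.9 CPM, against 33.7 CPM in other ribosome-poor cells (ratio 2.40, 1.33 to 4.24).

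Within the gate, Gzmb contributed most UMIs and Ccr2 was seen nearly as widely. Gzmb gave 424 UMIs in 102 of 149 cells and 51.8% of all gate UMIs, with up to 41 UMIs in 1 cell. Ccr2 gave 221 UMIs in 95 cells, Itgae 87 UMIs in 53 cells and Ccr3 86 UMIs in 52 cells. Only 1 gate gene was detected in 49 cells, 2 genes in 57 cells, 3 genes in 33 cells and all 4 in 10 cells. The most frequent exact combinations were Gzmb alone (24 cells), Ccr2 with Gzmb (23 cells), Ccr2 alone (18 cells) and Ccr2 with Itgae and Gzmb (15 cells). The set is thus not uniform: 47 of its 149 cells carried no Gzmb UMI.

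Near the threshold, 39 gated cells had exactly 2 gate UMIs and 22 had exactly 3. Just outside it, 136 kept cells with 0 or 1 exclusion UMI had 1 gate UMI. A further 22 kept cells had 2 or more gate UMIs and were left out by the exclusion genes, 4 of them with exactly 2 exclusion UMIs. Of the 8 genes in the rule, the exclusion genes were nearly unseen in gated cells by construction, with 5 UMIs of Il10, 9 of Lag3, 4 of Ccr8 and 3 of Il1r2.

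As a further description of the gate, each of its genes was left out in turn and cells were chosen by the other 3. The 4 genes were picked together from these data, so the shares show how they are spread over cells and support nothing further. Every cell was first thinned at random to 750 UMIs so that deep cells had no advantage. Ccr2 was then detected in 42.9% of 70 cells chosen without it (95% exact binomial interval 31.1 to 55.3), against 7.94% of 655 other ribosome-poor cells (5.99 to 10.3). The same comparison gave 19.3% of 88 cells against 2.51% of 638 for Ccr3, 21.6% of 88 cells against 3.60% of 639 for Itgae, and 41.1% of 56 cells against 9.73% of 668 for Gzmb. Without thinning the shares were 51.8% against 7.22% for Ccr2, 29.2% against 4.18% for Ccr3, 31.4% against 4.79% for Itgae and 53.5% against 8.87% for Gzmb. No cell type that should lack these genes was present in numbers, so the share that free RNA alone would give is not known.

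**Figure D1:**
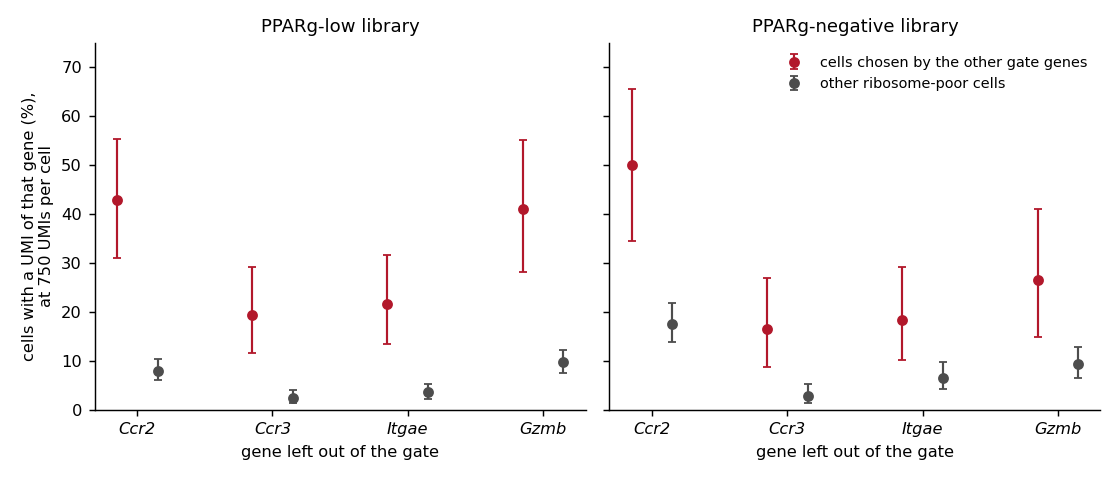
Share of cells with at least 1 UMI of a gate gene (vertical axis, percent, all cells thinned to 750 UMIs) when that gene was left out of the gate, for cells chosen by the other 3 genes (red) and other ribosome-poor cells (grey); bars are 95% exact binomial intervals. In the PPARg-low library the chosen cells reached 42.9% for Ccr2 and 41.1% for Gzmb, against 7.94% and 9.73% of the other cells, and in the PPARg-negative library 50% and 26.5% against 17.6% and 9.29%.

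The gated cells were deeper and had fewer mitochondrial and Malat1 transcripts than the cells they are compared with. Their median was 1353 UMIs and 797 genes, against 954.5 UMIs and 577 genes in other ribosome-poor cells. Mitochondrial genes took a median 4.81% of UMIs against 7.0%, and Malat1, a nuclear non-coding RNA, 4.65% against 8.43%, while the median ribosomal share was close (10.4% against 10.2%). The gate itself had no ribosomal limit, and 26 of the 149 gated cells had ribosomal shares of 20% or more. Those 26 cells held 35.4% of all gated UMIs. Some ratios below are therefore also given for the 123 ribosome-poor gated cells alone. Where no such value is given, the ratio is for all 149 gated cells only. The part that depth, mitochondrial share and ribosomal share play in the differences was not tested.

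**Figure D2:**
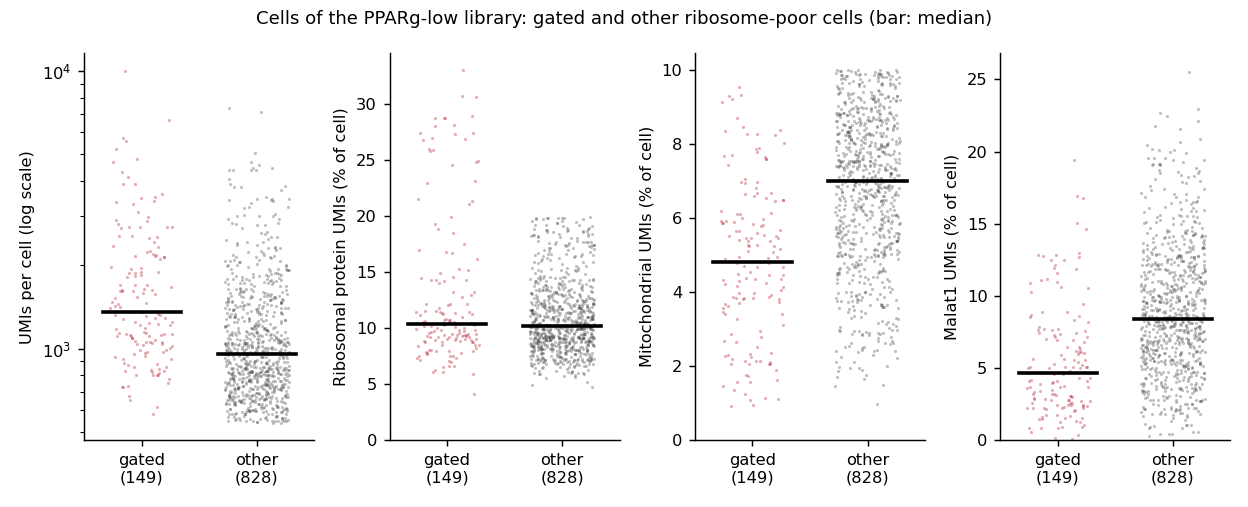
UMIs per cell (log scale) and the percent of each cell's UMIs from ribosomal protein genes, mitochondrial genes and Malat1, for the 149 gated and 828 other ribosome-poor cells of the PPARg-low library; each point is a cell and bars mark medians. The gated cells sit at a median of 1353 UMIs against 954.5 and at 4.81% mitochondrial UMIs against 7.0%, and 26 gated cells lie above 20% ribosomal UMIs.

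Gated cells had higher levels of 14 of 21 measured S100, galectin, annexin and cytoskeletal effector genes, and lower levels of 9 of 19 effector Treg genes and 6 of 10 suppressive mediators. Of 3821 genes outside the rule with 50 or more UMIs over both sets, 296 (7.75%) were higher in gated cells by 1.5 times or more with the interval above 1, and 329 (8.61%) were lower by as much with the interval below 1. With the 123 ribosome-poor gated cells alone, 255 (7.03%) of 3629 genes were higher and 146 (4.02%) lower. Of the 296 higher genes, 283 could be measured there and 158 were again higher and 1 was lower. Of the 329 lower genes, all measured, 116 were again lower and 0 higher.

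The list of S100, galectin, annexin and cytoskeletal effector genes had the most members past the 1.5-fold limit. Of 24 genes 21 were measured, 14 were higher in gated cells and 0 lower, with a median log2 ratio of 0.84, against -0.04 over all genes measured. Among ribosome-poor gated cells 13 were higher and 0 lower, with a median of 0.81. Vim, the intermediate filament protein vimentin, gave 1536 CPM (1392 to 1691) in gated cells and 376 CPM (339 to 416) in other ribosome-poor cells. That ratio was 4.09 (3.54 to 4.71) and 4.22 (3.60 to 4.95) with ribosome-poor gated cells. Vim was found in 51.4% of 142 gated cells thinned to 750 UMIs, against 19.5% of 605 others, and in 69.1% against 24.4% without thinning.

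Lmna, which encodes the nuclear lamins A and C, had the largest ratio in this list: 38 UMIs gave 140 CPM in gated cells against 24.5 CPM in others, 5.70-fold (3.33 to 9.93). Crip1, a small LIM domain protein, reached 3054 CPM against 970.6 CPM, 3.15-fold, and 2.48-fold with ribosome-poor gated cells. S100a4, a calcium-binding protein tied to cell movement, reached 1069 CPM against 355.6 CPM (3.01-fold, 2.57 to 3.52). S100a6 and Lgals1, which encodes galectin-1, were 2.25 and 2.44 times as high in gated cells, and 2.25 and 2.01 times with ribosome-poor gated cells. These were broad differences over cells: at 750 UMIs, Crip1 was found in 72.5% of gated cells against 38.8% of others, S100a6 in 69.0% against 46.0%, Lgals1 in 65.5% against 39.7% and S100a4 in 36.6% against 15.9%.

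Actin genes were higher by less. In the list of actin and motility genes all 20 were measured, 8 were higher and 0 lower in gated cells, with a median log2 ratio of 0.48, and 5 were higher with ribosome-poor gated cells (median 0.33). Actb and Actg1, the cytoplasmic actins, were 1.86 and 1.87 times as high in gated cells, and Cfl1, the actin-severing cofilin, 1.59 times (1.41 to 1.79). Tmsb4x, which encodes the actin monomer binding thymosin beta 4, was 2.07 times as high, but 1.31 times with ribosome-poor gated cells.

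Other genes among the 12 highest by the lower bound of the ratio came from metabolism and signalling. Ass1, the argininosuccinate synthase of the path from citrulline to arginine, gave 735 CPM in gated cells against 262.6 CPM in others. The ratio was 2.80 (2.32 to 3.38), and 2.62 with ribosome-poor gated cells. Glrx, the redox enzyme glutaredoxin, was 2.60 times as high (2.04 to 3.31). Rasgrp2, an exchange factor for the small GTPase Rap1 that controls integrin activation, gave 45 UMIs in gated cells and 53 in others, 3.05-fold (2.01 to 4.63). Rom1, a membrane protein best known from photoreceptors, gave 27 UMIs in gated cells and 24 in others, 4.05-fold (2.25 to 7.33).

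**Figure D3:**
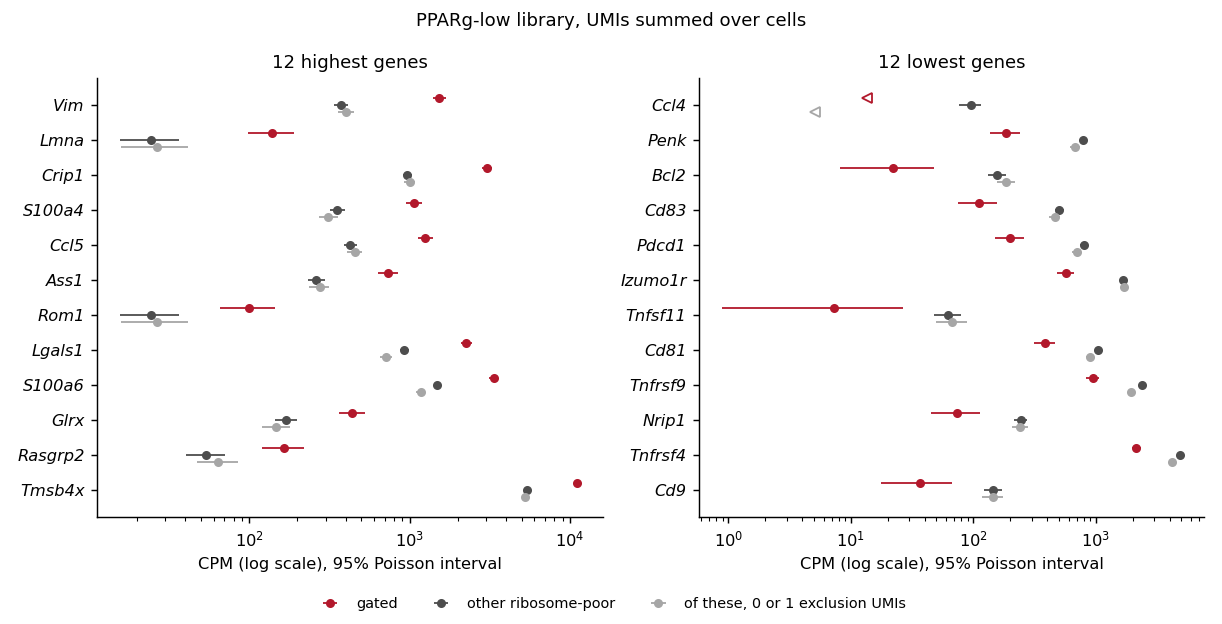
CPM (log scale) of the 12 genes highest and the 12 lowest in gated cells of the PPARg-low library, ranked by the bound of the ratio nearest to 1, for gated cells (red), other ribosome-poor cells (dark grey) and those of them with 0 or 1 exclusion UMI (light grey); bars are 95% exact Poisson intervals, and an open triangle marks the upper bound where no UMI was counted. Vim stood at 1536 CPM in gated cells against 376 CPM in other ribosome-poor cells, and Pdcd1 at 198 CPM against 800 CPM.

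Ccl5 ranked among the highest genes, with most of its UMIs in a few cells. Ccl5, which encodes a chemokine secreted by effector T cells, gave 342 UMIs (1257 CPM) in gated cells against 419 UMIs (428.1 CPM) in others, 2.94-fold (2.54 to 3.39). Of these gated UMIs 75.1% came from 3 cells, and 8 ribosome-rich cells held 304 of the 342. In ribosome-poor gated cells Ccl5 was lower, at 216 CPM (ratio 0.505, 0.352 to 0.705). The share of cells with Ccl5 at 750 UMIs was 14.1% of gated cells and 13.7% of others.

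Receptors that guide migration differed in both directions. Of 18 chemokine and egress receptors outside the rule 8 were measured, 3 were higher (Cxcr6, Ccr4 and S1pr4) and 2 lower (Cxcr4 and Gpr183), with a median log2 ratio of 0.23. Cxcr6, a receptor of tissue-resident lymphocytes, gave 125 CPM (86.5 to 175) in gated cells against 46.0 CPM (33.5 to 61.5) in others, 2.72-fold. It was detected in 11.97% of gated and 2.15% of other cells at 750 UMIs. Ccr4, a receptor for skin and tissue homing, was 2.14 times as high (1.25 to 3.60) and S1pr4, a sphingosine phosphate receptor, 1.63 times (1.30 to 2.03). Cxcr4, the receptor for the marrow chemokine CXCL12, gave 3 UMIs in gated cells and 57 in others (ratio 0.189, 0.0379 to 0.582). With ribosome-poor gated cells these ratios were 2.97 for Cxcr6, 2.52 for Ccr4, 1.88 for S1pr4 and 0.0977 for Cxcr4, while Gpr183, a receptor for oxysterols, was at 0.792 with an interval that held 1.

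Of 21 integrins and selectin ligands outside the rule 13 were measured, 2 were higher and 4 lower, with a median log2 ratio of -0.12. Itgb7, whose product pairs with the Itgae chain, gave 1893 CPM in gated cells against 1176 CPM in others, 1.61-fold (1.45 to 1.79), and 2.01-fold with ribosome-poor gated cells. Selplg, the P-selectin ligand PSGL-1, was 1.63 times as high (1.42 to 1.85). Itga4, the other known partner of Itgb7, was lower at 88.2 CPM against 251.3 CPM (ratio 0.351, 0.221 to 0.535). Itgb8, whose integrin activates latent TGF-beta, gave 11 UMIs in gated cells and 122 in others (ratio 0.324, 0.158 to 0.601). Itgal and Itgav had ratios of 0.650 and 0.529, which became 0.932 and 0.764 with intervals that held 1 among ribosome-poor gated cells.

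Among other cytotoxic genes, Prf1, which encodes the pore-forming perforin, and Gzmk gave 0 UMIs in gated cells, and Gzma gave 1. Of 18 granule and killing genes 9 were measured, 1 was higher (Ccl5) and 1 lower (Cst7, an inhibitor of granule cathepsins, ratio 0.376, 0.278 to 0.500). With ribosome-poor gated cells none was higher and 3 were lower, Ccl5, Cst7 and Nkg7. Nkg7, a granule membrane protein of cytotoxic lymphocytes, gave 257 CPM in gated cells and 266 CPM in others (ratio 0.968, 0.733 to 1.27).

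The gated set can be described further by its Gzmb content. Since a cell without Gzmb entered the gate through Ccr2, Ccr3 or Itgae, the rule itself shaped the sets compared here, and the values are a description. The 73 gated cells with 2 or more Gzmb UMIs held 67 Nkg7 UMIs in 19 cells, against 2 UMIs in 2 cells of the 47 without Gzmb, a ratio of 19.2 (5.10 to 161). Median depth was 1446 UMIs in the first set and 1247 in the second, and 59 of the 73 and 36 of the 47 cells were ribosome-poor. Nkg7 was lower in ribosome-poor gated cells than in other ribosome-poor cells, but not when all gated cells were taken. Ribosome-rich gated cells thus held more Nkg7 for their depth than ribosome-poor ones, and they weigh on this ratio. The Gzmb contrast was not repeated with ribosome-poor cells alone, so its Nkg7 ratio there is not known. Of 679 genes measured in that contrast 34 (5.01%) were higher and 17 (2.5%) lower by 1.5 times or more. Lgals3, which encodes galectin-3, gave 46 UMIs against 6 (4.38-fold, 1.87 to 12.6), and Fgl2, a secreted suppressive mediator, 51 UMIs against 9 (3.24-fold, 1.58 to 7.49). Klf2, Batf, a transcription factor of effector Tregs, and Sh2d1a, the adaptor SAP, were lower in the cells with Gzmb, at ratios of 0.619, 0.481 and 0.421. Apart from Klf2 and Nkg7 the genes in this paragraph were chosen after their values were seen.

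Of 22 effector Treg genes 19 were measured, 2 were higher (Id2 and Ikzf3) and 9 lower in gated cells, with a median log2 ratio of -0.56. In ribosome-poor gated cells 3 were higher (Icos, Id2 and Il2ra) and 5 lower, with a median of -0.21. Pdcd1, the inhibitory receptor PD-1, gave 198 CPM (149 to 259) in gated cells against 800 CPM (745 to 858) in others, a ratio of 0.248 (0.185 to 0.327). Tnfrsf9 and Tnfrsf4, the costimulatory receptors 4-1BB and OX40, had ratios of 0.395 and 0.442, and Cd83, a surface activation marker, 0.219. Limited to ribosome-poor gated cells, these were 0.313 for Pdcd1, 0.548 for Tnfrsf9, 0.582 for Tnfrsf4 and 0.305 for Cd83. At 750 UMIs Pdcd1 was detected in 13.4% of gated cells against 37.0% of others, Tnfrsf9 in 37.3% against 61.7% and Cd83 in 6.34% against 25.1%.

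The differences were also measured against cells with few exclusion UMIs. When the comparison was limited to the 677 other ribosome-poor cells with 0 or 1 gate UMI and 0 or 1 exclusion UMI, 321 (10.2%) of 3135 genes were higher and 302 (9.63%) lower in gated cells. Against those cells the ratio was 0.284 for Pdcd1, 0.484 for Tnfrsf9 and 0.516 for Tnfrsf4, and 3.80 for Vim. Of the 329 genes lower against all other ribosome-poor cells 280 could be measured here, and 239 of them were lower again and 0 higher. Of the 296 higher genes 280 could be measured, and 251 were higher again and 0 lower. The 677 cells are part of the 828, and the gated cells are the same. This agreement was thus in large part built in. The exclusion genes were not evened out in this comparison. Lag3 gave 33.1 CPM in gated cells against 114 CPM in the 677, and Ccr8 14.7 CPM against 62.8 CPM. Il1r2 was also lower in gated cells, while Il10 was close (18.4 against 18.1 CPM). The part that the rule plays in the lower genes was not tested. None of 8 measured Th2-like and Th17-like genes was past the limit here, Rora, Il1rl1 and Gata3 included. Selplg, Dgat2 and Klf6 were not past it either. Among 7 measured chemokine and egress receptors 1 was higher (Cxcr6) and 1 lower (Gpr183).

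Of 15 suppressive mediators outside the rule 10 were measured, 0 were higher and 6 lower, with a median log2 ratio of -0.89, and with ribosome-poor gated cells 1 was higher (Fgl2) and 5 lower (median -0.76). Penk, the precursor of enkephalin peptides, gave 184 CPM (136 to 242) in gated cells against 792 CPM (737 to 850) in others (ratio 0.232, 0.171 to 0.309). Nt5e, the ectoenzyme CD73 that makes adenosine, had a ratio of 0.361, and Nrp1, the coreceptor neuropilin-1 of thymus-derived Tregs, 0.521. In the list of TGF-beta activation and signalling genes, which shares Itgb8 and Itgav with the integrins, 12 of 19 were measured, 0 were higher and 4 lower (median -0.54); 2 were lower with ribosome-poor gated cells. Izumo1r, the folate receptor 4 of Tregs, gave 570 CPM against 1677 CPM (ratio 0.340, 0.286 to 0.401) and was found in 27.5% of gated cells and 63.6% of others at 750 UMIs.

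In the list of the T cell receptor complex and its proximal kinases all 18 genes were measured, 0 were higher and 5 lower (Cd2, Cd3d, Cd3g, Cd4 and Ptpn22), with a median log2 ratio of -0.36. With ribosome-poor gated cells 2 were higher (Cd6 and Lat) and 3 lower, with a median of -0.14. Cd3g and Cd3d, which encode CD3 chains, had ratios of 0.578 and 0.626, and 0.650 and 0.735 with ribosome-poor gated cells. In the list of 10 Treg and CD4 T cell genes, which shares Cd3d, Cd3g and Cd4 with it, 5 were lower in gated cells, among them Ikzf2, the transcription factor Helios, at 0.621, which was 0.760 with ribosome-poor gated cells.

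Klf2, a transcription factor that maintains S1P receptor expression and so egress from lymphoid organs, was higher. It gave 537 CPM (453 to 631) in gated cells against 228 CPM (199 to 260) in others, 2.36-fold (1.90 to 2.91), and was found in 33.1% against 12.6% of cells at 750 UMIs. It was the only gene past the limit upward among 8 measured of 20 resting Treg genes, and Cd27, a costimulatory receptor, was lower (ratio 0.600), with a median of -0.25. Bcl2, the survival factor, gave 6 UMIs in gated cells and 153 in others, a ratio of 0.141 (0.0510 to 0.314), and 0.182 with ribosome-poor gated cells. Other genes among the 12 lowest were Tnfsf11, the cytokine RANKL, with 2 UMIs against 61, the tetraspanins Cd81 (ratio 0.364) and Cd9 (0.255), and Nrip1, a nuclear receptor corepressor (0.302). Ccl4, a chemokine gene with 0 UMIs in gated cells and 93 in others, ranked lowest, but 83 of the 93 lay in 1 cell.

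Genes of tissue Treg subsets differed less, and not all in one direction. Rora, a nuclear receptor of Th17 and tissue Tregs, was 1.51 times as high in gated cells (1.09 to 2.05) and 2.05 times with ribosome-poor gated cells. Il1rl1, the IL-33 receptor ST2, was 1.65 times as high (1.07 to 2.51). Gata3, which specifies Th2 cells and supports tissue Tregs, was lower, with a ratio of 0.636 (0.517 to 0.777) that became 0.831 (0.664 to 1.03) with ribosome-poor gated cells. In that list of Th2-like and Th17-like genes 8 of 18 were measured. Of 22 lipid and PPARg target genes 7 were measured, 1 was higher (Dgat2, a triglyceride synthesis enzyme, 1.80-fold, 1.04 to 3.03) and 0 lower, with a median of -0.15. Between the 26 ribosome-rich gated cells and the 642 other ribosome-rich cells, where 170 (4.13%) of 4117 genes were higher and 125 (3.04%) lower, Dgat2 had a ratio of 0.398. Of 18 tissue residency genes 10 were measured, 1 was higher (Cxcr6) and 2 were lower, against 0 lower with ribosome-poor gated cells.

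**Figure D4:**
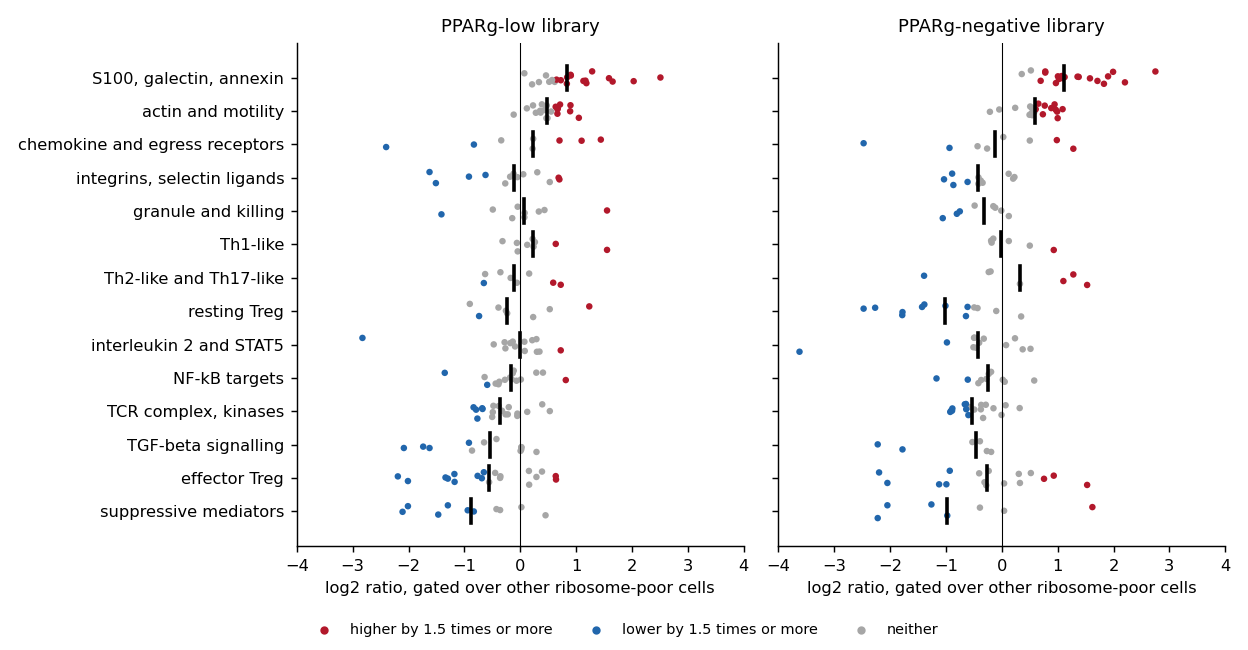
Log2 ratio of gated over other ribosome-poor cells for each measured gene of 14 lists, in the PPARg-low library (left) and the PPARg-negative library (right); each point is a gene, red where higher and blue where lower by 1.5 times or more with the interval on that side of 1, and black bars are list medians. The S100, galectin and annexin list has its median at 0.84 in the PPARg-low and 1.10 in the PPARg-negative library, and the suppressive mediators theirs at -0.89 and -0.98.

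The remaining lists had 0 to 4 genes past the limit in one direction. Over all measured genes 7.75% were higher and 8.61% lower, so a count of 1 in lists of this size is near those shares. Of 9 measured Th1-like genes 2 were higher (Ccl5 and Id2), of 11 measured cell cycle genes 1 was higher, and of 13 interferon response genes 2 were higher. With ribosome-poor gated cells 1 Th1-like gene was higher (Id2) and 2 were lower (Ccl5 and Nkg7). There, 0 cell cycle genes were higher and 1 was lower, and 2 interferon response genes were higher. Of 12 glycolysis genes 1 was higher, and of 15 genes of MHC class I and class II none was past the limit in either direction. Of 13 immediate early genes 1 was higher (Klf6) and 4 were lower, among them Zfp36l1, an mRNA decay factor, at 0.441; with ribosome-poor gated cells Zfp36l1 was the only lower one. Of 16 measured NF-kB target genes 1 was higher, Bcl3 at 1.76, and 2 were lower.

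Among the cells of the library that carried the exclusion genes instead, 131 ribosome-poor cells had 2 or more exclusion UMIs and 0 or 1 gate UMI. These are the cells most unlike the gated ones by the rule itself. Of 1523 genes measured, 150 (9.85%) were higher and 144 (9.46%) lower in gated cells. Klf2 gave 537 CPM in gated cells and 102 CPM in those cells, 5.26-fold (3.37 to 8.56), Vim 6.53-fold (4.90 to 8.87), and Ccr4 25 UMIs against 3 (6.90-fold, 2.11 to 35.7). Pdcd1 was at 0.185 and Penk at 0.166 of the level there. Lgals1, higher in gated cells than in all other ribosome-poor cells by 2.44 times, exceeded these cells by 1.59 times (1.39 to 1.82).

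Gate and exclusion genes were not mutually exclusive before the rule was applied. Of 143 ribosome-poor cells with 2 or more gate UMIs, 20 (13.99%) also had 2 or more exclusion UMIs, against 131 of 808 (16.2%) with 0 or 1 gate UMI. After thinning to 750 UMIs the shares were 5.15% of 97 cells (1.70 to 11.6) and 12.02% of 624 cells (9.57 to 14.8). The 20 cells that carried both gave Gzmb at 2465 CPM (1982 to 3029), Nkg7 at 1232 CPM (899 to 1649) and Vim at 685 CPM (443 to 1011). In the 123 ribosome-poor gated cells Gzmb was at 1883 CPM, Nkg7 at 159 CPM and Vim at 1588 CPM. Of the 90 Gzmb UMIs in the 20 cells, 31 came from 1 cell, and Gzmb levels were set by the gate in both sets. The Nkg7 and Vim intervals cover counting error only. One of the 20 cells held all 83 of their Ccl4 UMIs.

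The same rule was applied to the PPARg-negative library, from which it takes no member. There 145 of 2633 kept cells (5.51%) passed the gate, against 149 of 1619 (9.20%) in the PPARg-low library. The order of the libraries turned among ribosome-poor cells alone, where the gated share was 12.9% of 951 cells in the PPARg-low library and 18.9% of 614 in the PPARg-negative library. After thinning to 750 UMIs the shares of kept cells were 7.10% and 3.22%, and of ribosome-poor cells 12.8% and 17.1%. Each library is 1 pool, so no order of the 2 groups can be tested.

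Against 498 other ribosome-poor cells, the gated cells of the PPARg-negative library had 350 (14.8%) of 2370 genes higher and 331 (14.0%) lower by 1.5 times or more. Of the 296 genes higher in the PPARg-low library 244 were measured there, and 124 were higher and 4 lower. Of the 329 lower genes 209 were measured, and 109 were lower and 1 higher. The shared higher genes made up 41.9% of the higher genes in the PPARg-low library and 35.4% of those in the PPARg-negative library, and the shared lower ones 33.1% and 32.9%. Vim was 4.09-fold in the PPARg-low and 3.28-fold in the PPARg-negative library, Lmna 5.70-fold and 4.61-fold, and Ass1 2.80-fold and 2.66-fold. In the S100, galectin and annexin list 18 of 20 measured genes were higher in the PPARg-negative gated cells and 0 lower. Pdcd1 had a ratio of 0.248 in the PPARg-low and 0.242 in the PPARg-negative library, Tnfrsf9 0.395 and 0.459, Bcl2 0.141 and 0.0812, and Izumo1r 0.340 and 0.381.

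Some members differed between the libraries. Klf2 was 2.36-fold in the PPARg-low library and 1.27-fold (1.07 to 1.51) in the PPARg-negative one, where the other cells already stood at 682 CPM. Rasgrp2 was 3.05-fold and 1.06-fold (0.724 to 1.55), Itgb7 1.61-fold and 1.15-fold, and Selplg 1.63-fold and 1.09-fold. Resting Treg genes were lower in 9 of 13 measured in the PPARg-negative library, with Tcf7 among them (median -1.01), against 1 of 8 in the PPARg-low library. Of 7 measured cell cycle genes 6 were higher in PPARg-negative gated cells (median 1.11), against 1 of 11 in the PPARg-low library. With 1 library each, a difference between these ratios was not tested.

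Set directly beside each other, the gated cells of the PPARg-low library had higher levels of 11 of 15 measured effector Treg genes than those of the PPARg-negative library, and 1 of 20 measured S100, galectin and annexin genes was past the limit. Of 1724 genes outside the rule with 50 or more UMIs over both sets, 78 (4.52%) were higher in PPARg-low gated cells and 53 (3.07%) lower by 1.5 times or more. The gate genes chose both sets, so their levels are a description. Gzmb gave 1558 CPM in PPARg-low and 1416 CPM in PPARg-negative gated cells, Ccr2 812 and 1052 CPM, Itgae 320 and 280 CPM, and Ccr3 316 and 161 CPM. Vim gave 1536 and 1514 CPM (ratio 1.01, 0.885 to 1.16) and S100a4 1069 and 1150 CPM (0.930, 0.791 to 1.09). Of the 20 measured genes of the S100, galectin and annexin list 1 was higher (Anxa11) and 0 lower, with a median log2 ratio of 0.00.

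Of 15 measured effector Treg genes 11 were higher in PPARg-low gated cells and 0 lower, with a median log2 ratio of 1.03. Pdcd1 gave 198 CPM (149 to 259) in PPARg-low and 34.96 CPM in PPARg-negative gated cells, 5.68-fold (2.86 to 12.5). Tnfrsf9 was 3.46 times as high (2.68 to 4.52), Tnfrsf4 2.35 times and Klrg1, an inhibitory receptor of terminally differentiated effector cells, 2.41 times (2.0 to 2.91). Over alternative gates, cell limits and scalings the ratios ran from 1.61 to 12.1 for Pdcd1, 1.08 to 4.68 for Tnfrsf9, 1.33 to 2.76 for Tnfrsf4 and 2.03 to 2.93 for Klrg1. Among gated cells of 20% or more ribosomal UMIs, 11 genes named from this comparison kept their call, 8 were weaker and 1 reversed. Dusp1, a phosphatase that ends MAP kinase signalling, was 6.19-fold (3.03 to 14.3), Penk 4.04-fold and Nkg7 3.68-fold. Between ribosome-poor gated cells alone 70 (5.88%) of 1190 genes were higher and 62 (5.21%) lower, and Ccl5, at 10.9-fold between all gated cells, was 2.32-fold there. Of 8 measured NF-kB target genes 5 were higher and 0 lower (median 0.72).

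Part of these differences was also present between the other cells of the libraries. Of the 78 genes higher in PPARg-low gated cells, 77 were measured between the other ribosome-poor cells of the libraries, and 37 were higher in the PPARg-low cells there too and 0 lower, where 362 (8.46%) of 4279 genes were higher. Pdcd1 was 5.53-fold and Tnfrsf9 4.02-fold between those other cells. The median log2 ratio of the effector Treg list was 1.42 there, with 14 of 19 measured genes higher and 0 lower. Of 15 measured NF-kB target genes 5 were higher and 0 lower there (median 0.51). Of the 53 lower genes 17 were lower and 2 higher there, where 307 (7.17%) were lower.

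Proliferation and cytokine signalling genes were among those lower in the PPARg-low gated cells. Stmn1, a microtubule regulator of dividing cells, gave 66.2 CPM in PPARg-low and 171 CPM in PPARg-negative gated cells (ratio 0.386, 0.212 to 0.675). Hist1h2ap, a replication-dependent histone gene, was at 0.206 and Parp1, a DNA damage sensor, at 0.126 (0.0442 to 0.294). In the list of cell cycle genes 1 of 6 measured was higher (H2afz) and 3 were lower. Socs2 and Socs3, feedback inhibitors of cytokine receptors, were at 0.289 (0.134 to 0.574) and 0.424 (0.260 to 0.671), and Klf2 at 0.619 (0.501 to 0.762). Ccr4 was at 0.478 (0.285 to 0.780), while Cxcr6 was 1.99-fold (1.09 to 3.73). Between the other ribosome-poor cells of the libraries, Socs2, Socs3, Klf2 and Ccr4 were also lower in the PPARg-low library. Stmn1 went the opposite way there: 4 of 10 measured cell cycle genes, Stmn1 and H2afz among them, were higher in the PPARg-low library and 0 lower.

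**Figure D5:**
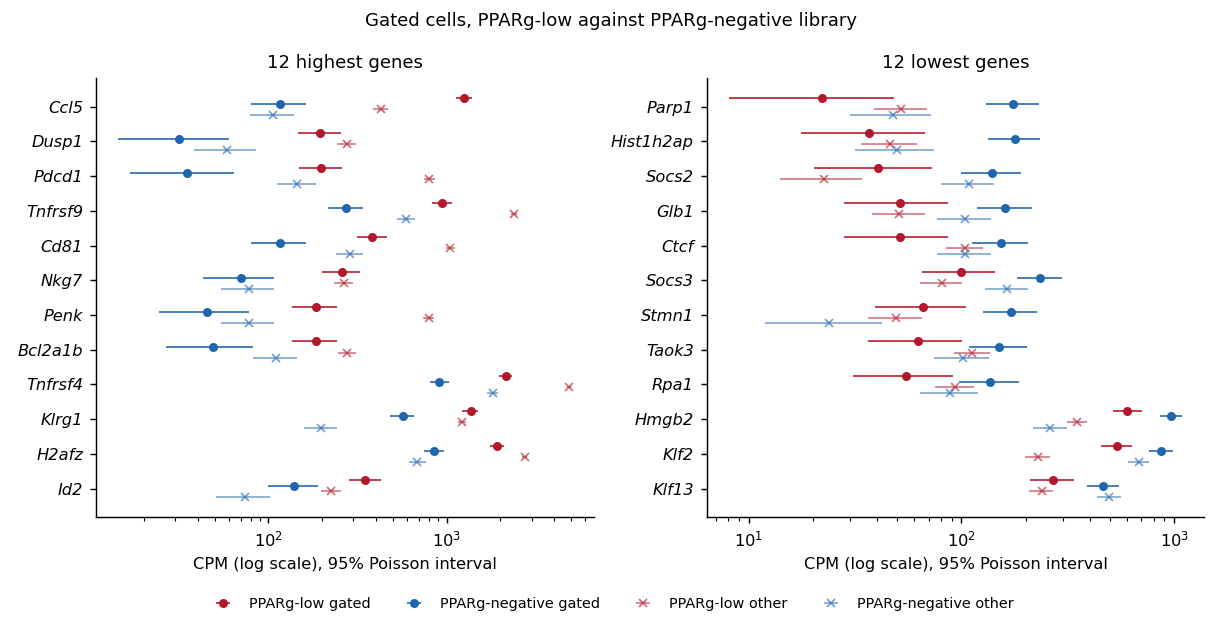
CPM (log scale) of the 12 genes highest and the 12 lowest in gated cells of the PPARg-low library (red circles) against gated cells of the PPARg-negative library (blue circles), with the other ribosome-poor cells of each library as crosses; bars are 95% exact Poisson intervals. Pdcd1 stood at 198 against 34.96 CPM in gated cells and at 800 against 145 CPM in the other cells, so both sets of cells differ between the libraries in one direction.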

How the data were processed

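Single-cell RNA was profiled in 2 libraries of sorted spleen Tregs. The deposited values are UMI counts per gene and barcode, made with Cell Ranger 2.1.0 on build mm10, per the submitters' processing notes; the authors' cell filter is not given in the sources used here. Counts were used as deposited, with no unmapped columns. UMIs were summed over cells and divided by all UMIs of those cells (CPM); genes needed 50 UMIs over both sets. Sets held 272094 UMIs (gated) and 978744 UMIs (other ribosome-poor cells). No test was run, since each group is 1 library; genes were called by size, at least 1.5-fold up or down with a 95% interval that left out 1. Ribosomal genes numbered 102. Intervals came from scipy 1.17.1; the calculation was tested on simulated data. Scrublet (scanpy 1.11.5), run to describe doublets, marked 14 kept cells (0.865%) of the PPARg-low library, 2 of them gated; none was removed. The libraries shared 5 barcodes, 0 of them gated. GENCODE M21 held 28416 of 28692 gene IDs. Named genes are the 12 highest and 12 lowest in the PPARg-low and between-library comparisons by the bound of the ratio nearest to 1, up to 6 per list among those past the limit, and the genes of the rule. The cells, the 35 gene lists and the tests were chosen with earlier results of these data known. Alternatives changed the gate, thinning, cell limits, comparison cells and scaling.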

Additional observations from a re-analysis of the deposited data

Results flagged for a closer look

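The gated cells of the libraries went opposite ways from their other ribosome-poor cells, past the 1.5-fold limit in both, in 5 of 2350 genes measured in both. These 5 were picked out after their values were seen. The difference between the libraries was not tested. Parp1 had a ratio of 0.423 (0.148 to 0.986) in the PPARg-low and 3.68 (2.19 to 6.38) in the PPARg-negative library, on 6 and 50 gated UMIs. Ms4a4b, a membrane protein gene of T cells, had 1.81 (1.60 to 2.05) in the PPARg-low and 0.586 (0.532 to 0.645) in the PPARg-negative library, on 396 and 577 gated UMIs. The other cells gave 785 Ms4a4b UMIs of 978744 in the PPARg-low and 1594 of 463031 in the PPARg-negative library. Its level thus differed more between the other cells than between the gated cells. For Parp1, with 51 and 22 UMIs in the other cells, the gated cells differed more. Pecam1, the adhesion molecule CD31, had 2.24 and 0.453, Prkd2, a protein kinase D, 1.70 and 0.589, and P4ha1, a subunit of collagen prolyl hydroxylase, 1.85 and 0.594. With ribosome-poor gated cells of the PPARg-low library the ratio was 2.18 for Ms4a4b, 2.48 for Pecam1, 1.86 for Prkd2 and 1.97 for P4ha1, and 0.437 for Parp1, whose interval (0.115 to 1.19) then held 1.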

How the results depend on the processing

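No paired analysis was possible because each group is 1 library and the labels give no replicate numbers. The main counts in the PPARg-low library were 296 higher (7.75%) and 329 lower (8.61%) of 3821 genes. They became 461 higher against all other kept cells, and 180 higher and 144 lower with the gate set on thinned cells. On UMIs of thinned cells they were 137 and 83, and at 5% mitochondrial UMIs or less 80 and 153. With equal weight per cell they were 483 and 549. Genes were called there by ratio alone, without the interval, so those 2 counts rest on a looser limit than the others. The lower count was 146 (4.02% of 3629 genes) with ribosome-poor gated cells and 206 at 100 or more UMIs per gene. The choice of cells, thinning and the UMI floor also change how many genes can be measured. A changed count given without its share is therefore not a measure of changed differences. Among alternatives chosen after seeing the data, 180 were higher in cells of 1000 or more UMIs. Between ribosome-rich cells 170 (4.13%) of 4117 genes were higher and 125 (3.04%) lower. Between libraries 78 (4.52%) of 1724 genes were higher and 53 (3.07%) lower. There, gated cells of 20% or more ribosomal UMIs gave 28 and 12, a gate of 3 UMIs gave 48 and 34, and the thinned gate gave 35 lower. The number of gated cells, 149, was 98 under the thinned gate and 80 at 5% mitochondrial UMIs. Ratios that turned direction were Ccl5 (0.505, ribosome-poor gated cells), Bcl2a1b (1.05, comparison without cells of 2 or more exclusion UMIs), Bcl3 (0.971, 5% mitochondrial limit), Ccl4 (24.3, no limit on exclusion genes), Hmgb2 between libraries (1.54, ribosome-rich gated cells), and, between ribosome-rich cells, Cd4 (1.19), Tigit (1.14), Dgat2 (0.398), Pgam1 (0.947) and Ptpn22 (1.21). The cause was not tested. Of 78 named genes 21 kept their call under every alternative run within the PPARg-low library, and 11 of 24 between libraries.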
